A study of Mus musculus with 35 samples.

Results

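The 7 genes Slc29a1, Slc29a2, Slc29a3, Dck, Cda, Rrm1 and Rrm2, which encode nucleoside transporters and enzymes of nucleoside and deoxynucleotide metabolism tied to the drug gemcitabine, were followed across 35 RNA-seq libraries of sorted mouse pancreatic ductal adenocarcinoma (PDAC) cells. They are 7 of the 53465 genes of the deposited count table, were taken by gene symbol and had 1 row each. The set was chosen by role, with the log2 fold change of Slc29a3 between the labels on day 14 already known. All 7 passed the filter on low counts in every comparison. The libraries come from KC-shSmad4 cells, which carry Ptf1a-Cre, Cre-activated rtTA3 linked to the red reporter mKate2, and a doxycycline (Dox)-inducible, GFP-linked shRNA against Smad4 in the Col1a1 locus. Cre under Ptf1a acts in pancreatic cells, the cell lines were derived from tumors of male mice, and which line or which of the Smad4 shRNAs a library holds was not given in the sources used here. The cells were injected into young female nude (Foxn1nu) mice, which lack a thymus and most T cells, to form primary tumors in the pancreas, liver metastases after intrasplenic injection with splenectomy, or lung metastases through the tail vein. All hosts were fed Dox, which keeps the shRNA on and Smad4 silenced (Smad4 off), and for the Smad4 on groups it was withdrawn 4, 5 or 6 weeks after injection in the pancreas, liver and lungs to restore Smad4, while the Smad4 off hosts stayed on Dox. mKate2-positive cells were sorted 7 or 14 days later. On day 7 there were 3 pancreas libraries labelled Smad4 off and 2 labelled on, 2 and 3 from liver, and 4 and 2 from lungs. Day 14 had 2 and 3, 3 and 3, and 4 and 4 of them, organs in the same order.

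Gemcitabine is a cytidine analog and a standard drug for pancreatic cancer. It is hydrophilic and enters cells through nucleoside transporters, is activated by phosphorylation, for which deoxycytidine kinase does the first step, and is inactivated by cytidine deaminase. Its diphosphate inhibits ribonucleotide reductase, the enzyme that makes the deoxynucleotides needed for DNA synthesis. No library here was treated with the drug, so the measurements concern the mRNA levels of these genes in tumor cells and not drug uptake or response.

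Depth was 11885461 to 43571007 counts per library (median 19415320), so that 3 counts, the smallest level taken as detectable, corresponded to 0.0689 to 0.252 CPM (the usual count unit after each library is scaled to the same total), a floor that covers counting error only. Against the labels, the 17 libraries labelled Smad4 on held 14.8 to 22.4 CPM of Smad4 mRNA, less than any of the 18 labelled Smad4 off (69.9 to 143.3 CPM). The labels were kept as deposited, and every difference below is labelled on against labelled off, with no statement on which libraries had Smad4 restored. Defining markers of carcinoma epithelium were detected in all libraries, with 6 markers summing to 2550 to 16484 CPM. Fibroblast markers (8 genes) summed to 9256 to 25361 CPM in the pancreas and to 161 to 4355 CPM in liver and lungs, except in the paired-end liver library labelled off on day 7 (mouse 2), where they reached 36093 CPM. That library stood apart from the others, and 10 of the 35 libraries had counts of the mitochondrial gene mt-Co3 where 25 had none. Values without these libraries are given beside the results they changed.

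The sequences upstream of Slc29a3, Cda and Rrm1 are shown because these 3 genes had labels that did not overlap in the most organs and days, and that of Rrm2 because its product works in one enzyme with that of Rrm1. Each is the 250 bases before the RefSeq transcription start on the strand of the gene (GRCm38.p6): Slc29a3 at chr10:60752783-60753032 (minus strand), Cda at chr4:138367956-138368205 (minus), Rrm1 at chr7:102441445-102441694 (plus) and Rrm2 at chr12:24708004-24708253 (plus). All 7 genes matched the RefSeq promoter table, Slc29a1 with 8 entries. Capitals mark matches on either strand to CAGAC (the short SMAD-binding element), CCAAT (the NF-Y box) and TTCCCGC (an E2F motif). GTCTAGAC, the palindromic SMAD site, and GACCACCCA, the GLI motif, were also searched.
Slc29a3: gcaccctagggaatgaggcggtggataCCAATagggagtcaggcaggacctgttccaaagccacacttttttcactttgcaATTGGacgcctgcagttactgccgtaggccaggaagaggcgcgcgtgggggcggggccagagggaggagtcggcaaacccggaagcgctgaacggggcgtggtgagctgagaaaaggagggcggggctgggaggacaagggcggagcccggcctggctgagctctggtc
Cda: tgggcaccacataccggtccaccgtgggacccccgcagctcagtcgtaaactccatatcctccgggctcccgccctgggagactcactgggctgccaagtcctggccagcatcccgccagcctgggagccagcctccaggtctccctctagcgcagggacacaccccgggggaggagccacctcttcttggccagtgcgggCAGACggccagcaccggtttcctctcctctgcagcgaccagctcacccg
Rrm1: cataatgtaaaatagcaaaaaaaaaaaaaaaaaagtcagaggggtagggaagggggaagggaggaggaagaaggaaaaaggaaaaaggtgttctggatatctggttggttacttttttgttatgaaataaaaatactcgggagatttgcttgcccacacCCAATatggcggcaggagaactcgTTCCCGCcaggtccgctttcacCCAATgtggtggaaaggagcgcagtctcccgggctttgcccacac
Rrm2: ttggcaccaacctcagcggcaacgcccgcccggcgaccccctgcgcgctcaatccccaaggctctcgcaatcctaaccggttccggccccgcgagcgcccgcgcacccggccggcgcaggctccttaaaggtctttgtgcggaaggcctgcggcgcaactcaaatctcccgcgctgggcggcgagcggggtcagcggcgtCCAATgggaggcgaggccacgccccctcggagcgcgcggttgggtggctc
Slc29a3 held 2 CCAAT boxes, 223 bases before the start on the gene strand and 169 bases before it on the opposite strand, and no CAGAC. Cda held 1 CAGAC, 49 bases before the start. Rrm1 held a TTCCCGC 67 bases before the start between 2 CCAAT boxes at 91 and 45 bases, and Rrm2 had 1 CCAAT box at 50 bases. Of the 32851 promoter entries of the same length in the table, 42.2% held CAGAC, 33.8% CCAAT, 3.82% TTCCCGC, 0.167% GTCTAGAC and 0.225% GACCACCCA. The last 2 motifs were not found in any entry of the 7 genes. No match shown overlaps another, and a match is a description of letters only.

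Levels compared between genes are per length, as CPM per kilobase of the longest protein-coding transcript (RPKM). Slc29a1, which encodes ENT1, the main equilibrative nucleoside transporter of the plasma membrane and the chief entry route of gemcitabine, was the highest of the 7 in all 35 libraries, with a median of 67.3 RPKM. With the length of merged exons in its place, it was the highest in 32 of 35, Rrm2 in 2 and Cda in 1. Slc29a2 (ENT2), a second equilibrative transporter, was the lowest in all 35, with a median of 2.09 RPKM. Between them lay Rrm2 (28.2), Rrm1 (24.4), Cda (12.6), Dck (5.94) and Slc29a3 (5.02). The place of Slc29a3 below Dck held for the libraries labelled off only, with medians of 3.83 RPKM for Slc29a3, 6.19 for Dck and 14.8 for Cda. In those labelled on, the medians were 13.8, 4.99 and 8.89 RPKM, and Slc29a3 lay above Dck in 17 of 17 libraries and above Cda in 15. Dck was below Cda per length in 17 of the 18 libraries labelled off and in 16 of the 17 labelled on. The order of Rrm2 and Rrm1 depended on the length used: Rrm2 was above Rrm1 in 24 of 35 libraries by the longest protein-coding transcript and in all 35 with merged exons, whose Rrm1 length of 11012 bases joins all annotated transcripts, against 3997 bases for the longest protein-coding one. The plot of levels shows each gene on its own CPM scale.

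**Figure D1:**
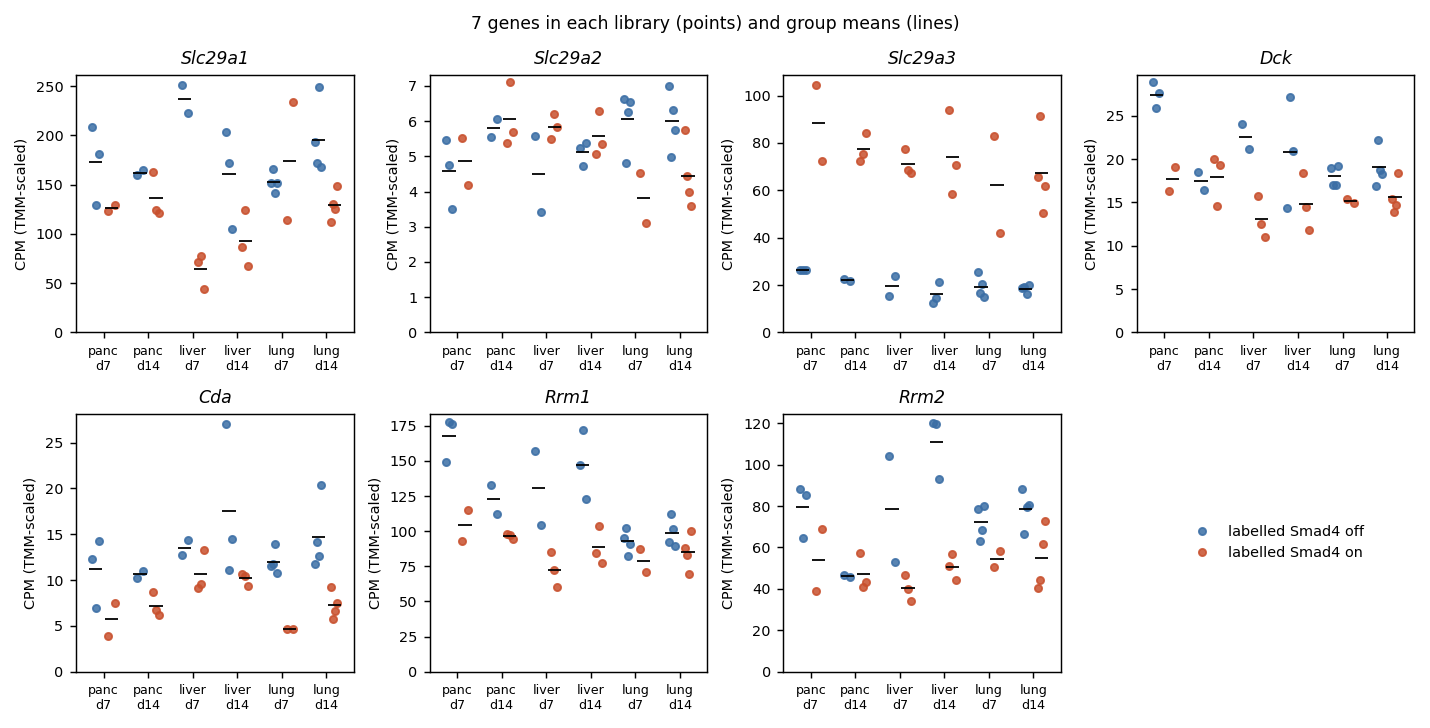
CPM (TMM-scaled, linear axis from 0) of the 7 genes in each of 35 libraries, by organ and day (panc, pancreas; d7 and d14, days 7 and 14 after Dox withdrawal in the groups that had it). Points are libraries and lines are group means, and Slc29a3 is the panel in which every library labelled on (41.8 to 104 CPM) lies above every library labelled off (12.4 to 26.3 CPM).

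Slc29a3 encodes ENT3, an equilibrative transporter of lysosomes and mitochondria that moves nucleosides within the cell (ENSMUSG00000020100, chr10:60712072-60752794, minus strand, GRCm38). Its level was 12.4 to 26.3 CPM in the 18 libraries labelled off and 41.8 to 104 CPM in the 17 labelled on. The 2 labels did not overlap in any organ or on either day. Over all 17547 genes tested in the 35 libraries, 5 (0.0285%) separated the labels completely, 0.0228% with labelled on higher and 0.0057% lower, the others being Pax9, Vstm2b and Gli2, also higher in labelled on, and Smad4, lower. The difference of Slc29a3 on day 14 was known when the 7 genes were chosen, so its day 14 values and any value over all libraries are a description. Over all 35 libraries, its log2 fold change was 1.88 ± 0.10 (SE).

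On day 7 in the pancreas, the libraries labelled off held 26.2, 26.3 and 26.3 CPM of Slc29a3 and those labelled on 104 and 72.5 CPM. In the liver the values were 15.2 and 23.6 CPM against 77.2, 68.4 and 67.5 CPM. In the lungs they were 25.5, 16.5, 20.3 and 15.0 CPM against 82.8 and 41.8 CPM. Every library labelled on was above every library labelled off, and the 2 lung libraries labelled on were far apart. The log2 fold change in pancreas tumors was 1.76 (edgeR adjusted p = 0.00791). Liver metastases gave 1.80 (adjusted p = 0.0562), and lung metastases 1.70 (adjusted p = 0.440). The pancreas passed the threshold in edgeR and the other organs did not. In the pancreas, leaving out mouse 3 labelled off raised the adjusted p to 0.0505. With the mouse number as a replicate block, a fit that also leaves out that library, it was 0.151. That fit called 0 of the 14281 genes tested. Same-numbered libraries of the pancreas on day 7 did not deviate together (correlations -0.0677 and -0.131), so little can be read from this block. Fibroblast markers in the pancreas on day 7 summed to 12620 to 17241 CPM labelled off and 24119 to 25361 CPM labelled on, and 7 acinar cell markers to 2032 to 3280 and 745 to 1008 CPM. Macrophage markers were at a lower fitted level labelled on in 10 of 10 (median -0.36), endothelium in 5 of 6 (-1.05) and erythroid in 5 of 5 (-0.43). Carcinoma epithelium markers were at a higher one in 6 of 6 (0.32). The part of these markers in the difference was not tested. In the liver, without the paired-end library, the log2 fold change was 2.12 (edgeR adjusted p = 0.0275), with the lone library left labelled off assumed to vary like the others. With each of the 5 liver libraries left out, it ran from 1.57 to 2.12, and the adjusted p, at most 0.242, was under 0.05 in 2 of the 5 fits. DESeq2 called Slc29a3 in all 3 organs on day 7, with adjusted p = 1.06e-15, 5.92e-09 and 0.000663.

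On day 14, Slc29a3 was at 22.7 and 21.9 CPM in the pancreas labelled off and at 72.2, 75.5 and 84.4 CPM labelled on, a log2 fold change of 1.82. In the liver it was at 12.4, 14.5 and 21.2 CPM against 93.8, 58.3 and 70.5 CPM, a log2 fold change of 2.18. In the lungs the labelled off values were 18.8, 19.1, 16.1 and 19.9 CPM and the labelled on values 65.6, 91.2, 50.3 and 62.0 CPM, a log2 fold change of 1.86. In the pancreas on day 14, 1 of 8 fibroblast markers and 1 of the 2 hepatocyte markers tested were called higher labelled on. At a higher fitted level were 5 of 5 erythroid (median 1.26), 6 of 6 carcinoma epithelium (0.48) and 8 of 10 macrophage markers (0.17). So were 4 of 6 endothelium (0.04) and 2 of 2 tested lung epithelium markers (0.94). Acinar cell markers were at a lower one in 7 of 7 (-0.15). The part of all these markers in the difference was not tested. In the liver on day 14, 9 of 10 macrophage (median 0.55) and 6 of 8 hepatocyte markers (0.50) were at a higher fitted level labelled on. Of 8 fibroblast markers, 6 were at a lower one (-0.13). The 6 endothelium markers summed to 6.59 to 70.4 CPM labelled off and to 3.335 to 10.0 CPM labelled on. For the 6 lung epithelium markers the sums were 2.64 to 20.0 CPM and 7.00 to 17.3 CPM. None of these markers was called. Their part in the liver differences of Slc29a3, Cda, Rrm1 and Rrm2 was not tested. The 6 differences of Slc29a3 ran from 1.70 to 2.18 on the log2 scale. The difference between the labels was not shown to differ between organs, with a largest gap of 0.15 on day 7 (edgeR interaction test, adjusted p = 0.973). That gap ran from 0.097 to 0.70 with each of the 16 libraries left out, the highest without mouse 1 of the lungs labelled on (adjusted p = 0.387). The largest gap on day 14 was 0.41. The libraries with mt-Co3 counts kept the labels apart (15.0 to 23.6 CPM in 5 labelled off, 41.8 to 70.5 CPM in 5 labelled on), and so did those without (12.4 to 26.3 CPM in 13, 58.3 to 104 CPM in 12).

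The other 6 genes moved the other way or little. In the 6 comparisons of labels within an organ and a day, Cda and Rrm1 were lower in labelled on in 6 of 6, Slc29a1, Dck and Rrm2 in 5 of 6 and Slc29a2 in 2 of 6. At an adjusted p under 0.05 and a fold over 2, edgeR called 1 of the 7 genes in pancreas tumors of day 7, where 1.33% of all genes tested were called, and 1 in those of day 14 (4.64%). For liver metastases it called 0 of 7 on day 7 (0.444%) and 0 on day 14 (0%), and for lung metastases 0 on day 7 (0%) and 1 on day 14 (0.0271%). Each of these calls was Slc29a3, and nothing is read from its calls on day 14, which were known when the gene was chosen. At an unadjusted p under 0.05, the liver had 5 of the 7 genes on day 7 (27.1% of all genes) and 4 on day 14 (9.68%), and lung metastases of day 7 had 2 (5.22%). Beside these zeros, DESeq2 called 3 of the 7 for liver day 7, 2 for liver day 14 and 2 for lungs day 7, where it called 17.5%, 2.22% and 0.658% of all genes. For liver day 14, Slc29a3 was among the 4 genes at an unadjusted p under 0.05 and among the 2 called by DESeq2. Nothing is read from its part in these counts, since its difference on that day was known.

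A single fit of the labels over all 35 libraries, with organ, day and their interaction as terms, was added after seeing the data. It uses the same libraries as the 6 comparisons and is not independent of them. In it, 5 of the other 6 genes were lower in labelled on at an adjusted p under 0.05, and none by a fold over 2. Of all 17547 genes tested, 19.8% passed that threshold at any fold and 4.84% also changed over 2-fold. Cda fell by 0.86 ± 0.13 (SE) on the log2 scale (edgeR adjusted p = 3.95e-05). Slc29a1 fell by 0.62 ± 0.15 (adjusted p = 0.00381) and Rrm2 fell by 0.61 ± 0.11 (adjusted p = 0.000378). Rrm1 fell by 0.49 ± 0.08 (adjusted p = 0.000104) and Dck fell by 0.39 ± 0.09 (adjusted p = 0.00188). Slc29a2 did not pass, at -0.11 ± 0.11 (adjusted p = 0.562). Every one of the 5 kept an adjusted p under 0.05 when any 1 of the 35 libraries was left out, the highest being 0.00813 for Slc29a1. In the 25 libraries without mt-Co3 counts their adjusted p ran from 0.000165 to 0.011, and in the 10 with such counts, none of them from the pancreas, from 0.311 to 0.517 with log2 fold changes of -0.45 to -0.90. Of the marker lists, 3 of 8 hepatocyte markers were called higher and 2 of 7 acinar cell markers lower in labelled on in the same fit, and their part in these differences was not tested. Fewer cells of a type and less RNA per cell cannot be told apart in these bulk libraries.

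**Figure D2:**
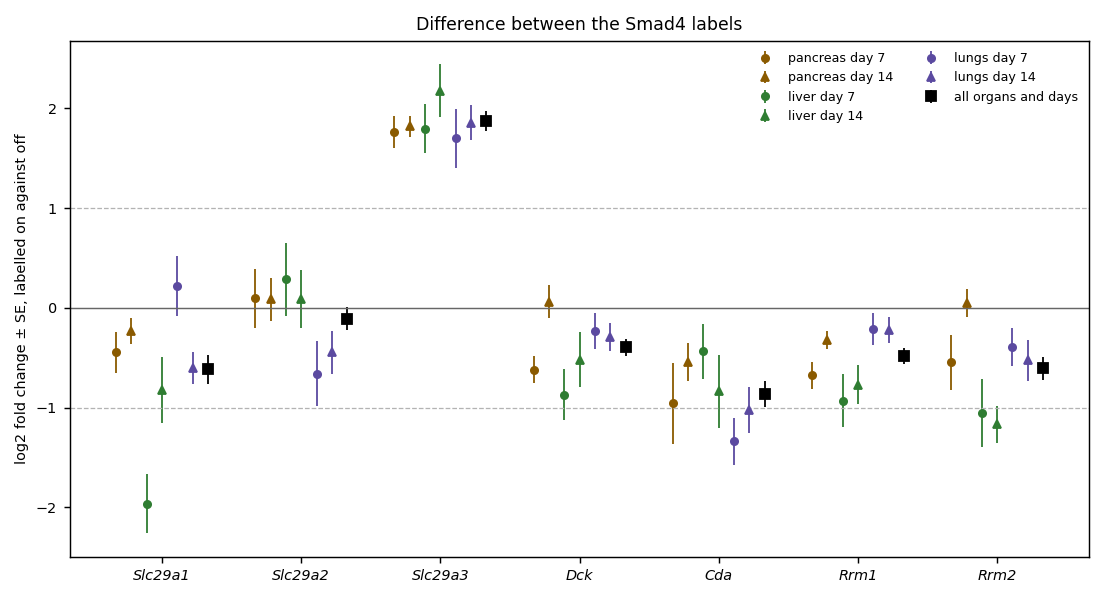
Log2 fold change of each gene, labelled on against labelled off, in the 6 combinations of organ and day (colors by organ; circles day 7, triangles day 14) and in the single fit of all 35 libraries (black squares), with SE bars; dashed lines mark a fold of 2. Slc29a3 is near 2 throughout (1.70 to 2.18), and Slc29a1 spreads from -1.96 in the liver to 0.22 in the lungs on day 7.

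Slc29a1 (ENSMUSG00000023942, chr17:45585200-45599606, minus strand) varied most between organs in its difference between the labels on day 7. In the liver on day 7, it was at 252 and 223 CPM in the libraries labelled off and at 71.4, 77.6 and 43.7 CPM in those labelled on. In the lungs on day 7, the labelled off values were 152, 166, 141 and 152 CPM and the labelled on values 114 and 234 CPM. In the pancreas on day 7, they were 209, 130 and 181 CPM against 123 and 129 CPM. The labels were thus apart in the liver and nearly met in the pancreas, at 129.4 CPM for the highest labelled on and 129.7 CPM for the lowest labelled off, while in the lungs 1 library labelled on lay below and the other above all 4 labelled off. The lung library at 234 CPM and the liver library at 43.7 CPM, both labelled on, were among the 10 with mt-Co3 counts. The log2 fold changes were -1.96 ± 0.30 in the liver (SE; edgeR adjusted p = 0.0562), against -0.44 in pancreas tumors (adjusted p = 0.258) and 0.22 in lung metastases (adjusted p = 0.998). In the liver, leaving out the paired-end library gave -2.07 (adjusted p = 0.0409) and leaving out the other library labelled off gave -1.82 (adjusted p = 0.0204), in both cases past the threshold, with the lone library labelled off assumed to vary like the rest. Leaving out any of the 3 labelled on gave -2.13 to -1.75 and raised the adjusted p, to at most 0.242.

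The responses of Slc29a1 differed between organs on day 7, by 2.12 on the log2 scale between liver and lungs in a joint fit of the 3 organs (edgeR interaction test, adjusted p = 0.0285). It was the only one of the 7 genes called there, where 4.19% of all genes were. That call rests on few libraries: with each of the 16 libraries left out in turn, the adjusted p reached 0.0691 and was above 0.05 for 8 of them. With the replicate number as a block it was 0.102, but that block also joins libraries of different organs, and so of different hosts, that only share a number. Without the paired-end liver library, which held 223 CPM of Slc29a1 against 252 CPM in the other library labelled off, the largest difference was 2.25 (adjusted p = 0.0664). Of the libraries with mt-Co3 counts, leaving out the lung library at 234 CPM turned the lung fold change from 0.22 to -0.45 and gave a largest difference of 1.49 (adjusted p = 0.0461), and leaving out the liver library at 43.7 CPM gave 1.85 (adjusted p = 0.0691). On day 14, the libraries labelled off in the liver held 204, 172 and 105 CPM and those labelled on 86.9, 125 and 67.9 CPM. In the lungs, 193, 172, 249 and 168 CPM stood against 113, 130, 125 and 149 CPM, and in the pancreas 159 and 165 CPM against 163, 124 and 122 CPM. The lung groups did not overlap on day 14 and those of the other organs did. Same-numbered libraries of the 2 labels deviated together in the lungs on that day, and less clearly in the liver. Slc29a1 was lower labelled on in 3 of 3 liver pairs and in 4 of 4 lung pairs. With the replicate number as a block, its log2 fold change was -0.81 in liver metastases (edgeR adjusted p = 0.421) and -0.59 in lung metastases (adjusted p = 0.0868), and the calls over all genes in the lungs went from 4 (0.0271%) to 109 (0.739%). The difference between organs was at most 0.54 (interaction test, adjusted p = 1). In that test edgeR called 0 of the 7 genes and 0% of all genes, DESeq2 called 0 of the 7 (0.272%), and 1 of the 7, Rrm2, had an unadjusted p under 0.05 (4.67% of all genes). In the liver on day 7, markers of other cells moved with the labels too: 8 hepatocyte markers summed to 9.88 and 32.8 CPM labelled off and to 68.5 to 146 CPM labelled on, with 2 of the 8 at 0 in the library with the lowest sum. The sums of 10 macrophage markers were 32.4 and 35.4 CPM labelled off and 51.6 to 98.1 CPM labelled on, and those of 6 carcinoma epithelium markers 12142 and 3768 CPM against 15094 to 16484 CPM. Fibroblast markers summed to 327 CPM and, in the paired-end library, 36093 CPM labelled off, and to 463 to 1439 CPM labelled on. Lung epithelium markers (6 genes, 2 of them tested) summed to 3.45 and 4.01 CPM labelled off and to 18.1 to 42.6 CPM labelled on. Acinar cell markers (7 genes) summed to 4.88 CPM and, in the paired-end library, 384 CPM labelled off, and to 8.77 to 16.9 CPM labelled on. The part of these markers in the difference was not tested.

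Slc29a2 (ENSMUSG00000024891, chr19:5024006-5031971, plus strand) stayed between 3.09 and 7.12 CPM in all 35 libraries, well above the floor. Its labels overlapped in 5 of the 6 comparisons. On day 14, it was lower labelled on in 4 of 4 same-numbered lung pairs and in 2 of 3 liver pairs. The log2 fold change in the lungs on that day was -0.45 (edgeR adjusted p = 0.546, and 0.358 with the replicate block). In the lungs on day 7, the values 6.62, 4.81, 6.26 and 6.55 CPM labelled off stood above 4.54 and 3.09 CPM labelled on, a log2 fold change of -0.66 (edgeR adjusted p = 0.998). In the liver on day 7 it was 0.29 (adjusted p = 0.674) and turned to -0.041 without the paired-end library (adjusted p = 0.947), which would make Slc29a2 lower in labelled on in 1 more comparison than counted above.

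Among the metabolic enzymes, Cda had a lower mean in labelled on in every organ and on both days, and fell in the fit over all libraries. Cda (ENSMUSG00000028755, chr4:138338424-138367992, minus strand) encodes cytidine deaminase, which turns cytidine and gemcitabine into uridine forms. In the lungs on day 7, it was at 11.5, 11.8, 13.9 and 10.8 CPM labelled off and at 4.70 and 4.64 CPM labelled on. On day 14, the lung values were 11.8, 14.2, 12.7 and 20.4 CPM against 9.28, 5.76, 6.62 and 7.52 CPM. The lungs therefore had no overlap on either day, and Cda showed its largest differences there, of -1.34 ± 0.24 (SE) on day 7 (edgeR adjusted p = 0.440, DESeq2 adjusted p = 0.000163) and -1.02 ± 0.23 on day 14 (edgeR adjusted p = 0.211, DESeq2 adjusted p = 0.00666). On day 14, Cda was lower labelled on in 4 of 4 same-numbered lung pairs and in 3 of 3 liver pairs. With the replicate number as a block, its log2 fold change on that day was -1.01 in the lungs (edgeR adjusted p = 0.0504) and -0.72 in the liver (adjusted p = 0.550). Cell markers moved with the label in the lungs. On day 7, 8 of 8 fibroblast and 10 of 10 macrophage markers were at a lower fitted level labelled on (medians -1.26 and -0.48), as were 5 of 6 endothelium and 6 of 6 lung epithelium markers (-0.79 and -0.13). On day 14, 7 of 8 and 9 of 10 were at a higher one (medians 0.51 and 0.97), as were 5 of 6 endothelium and 6 of 6 lung epithelium markers (0.26 and 0.58), with no marker of these lists called on either day. Erythroid markers were at a lower level labelled on in 2 of 2 tested on day 7 and in 5 of 5 on day 14 (medians -1.43 and -0.92), and 4 of 6 carcinoma epithelium markers were lower on each day (medians -0.13 and -0.28). Their part in the difference of Cda was not tested. Day 14 liver values of 27.0, 11.2 and 14.5 CPM stood against 10.7, 10.5 and 9.39 CPM, and day 14 pancreas values of 10.2 and 11.04 CPM against 8.65, 6.74 and 6.14 CPM, in both cases without overlap. On day 7, the labels overlapped in the liver (12.7 and 14.4 CPM against 9.08, 9.52 and 13.3) and in the pancreas (12.3, 6.94 and 14.2 CPM against 3.93 and 7.47). The difference of Cda between labels was not shown to differ between organs (interaction test; largest gap 0.97 at day 7 with adjusted p = 0.363, largest gap 0.44 at day 14 with adjusted p = 1).

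Dck (ENSMUSG00000029366, chr5:88764996-88783281, plus strand) encodes deoxycytidine kinase, the salvage enzyme that starts the activation of gemcitabine. In the pancreas on day 7, Dck was at 28.9, 25.9 and 27.6 CPM labelled off and at 16.3 and 19.1 CPM labelled on, a log2 fold change of -0.62 (edgeR adjusted p = 0.0658). In the liver on day 7, it was at 24.1 and 21.1 CPM against 15.8, 12.5 and 10.99 CPM, a log2 fold change of -0.87 (adjusted p = 0.108). In the lungs on day 7, 18.9, 17.0, 17.1 and 19.2 CPM stood against 15.4 and 15.0 CPM, at -0.23 (adjusted p = 0.998). The labels were apart in all 3 organs on day 7, and on day 14 they overlapped in all 3.

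Rrm1 and Rrm2 encode the large catalytic subunit and the radical-bearing small subunit of ribonucleotide reductase, and Rrm2 in particular is made in S phase. Rrm1 (ENSMUSG00000030978, chr7:102441695-102469771, plus strand) was at 149, 178 and 176 CPM in the pancreas labelled off on day 7 and at 93.1 and 115 CPM labelled on, a log2 fold change of -0.68 (edgeR adjusted p = 0.0581). On day 14 in the pancreas, it was at 133 and 112 CPM against 97.7, 97.6 and 94.2 CPM (log2 fold change -0.32, adjusted p = 0.0504). In the liver, Rrm1 was at 157 and 104 CPM against 85.3, 72.1 and 60.6 CPM on day 7 (-0.93, adjusted p = 0.107), a difference that was -0.54 without the first library labelled off and -1.22 without the second, the paired-end library. On day 14 it was at 147, 172 and 123 CPM against 84.7, 104 and 77.4 CPM in the liver (-0.77, adjusted p = 0.357). Rrm1 was thus without overlap in pancreas and liver on both days, and in the lungs, where the log2 fold changes were -0.21 and -0.22, the labels overlapped.

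Rrm2 (ENSMUSG00000020649, chr12:24708241-24714146, plus strand) differed most in the liver. There it was at 104 and 53.0 CPM labelled off and at 46.6, 40.1 and 33.9 CPM labelled on, on day 7, a log2 fold change of -1.05 (edgeR adjusted p = 0.130). On day 14 in the liver, it was at 120, 119 and 93.0 CPM against 50.9, 57.0 and 44.4 CPM, a log2 fold change of -1.17 ± 0.19 (SE; edgeR adjusted p = 0.357, DESeq2 adjusted p = 9.63e-05). In the pancreas on day 7, the values were 88.3, 64.6 and 85.3 CPM against 38.8 and 69.1 CPM (log2 fold change -0.55, edgeR adjusted p = 0.301). On day 14 in the pancreas, they were 46.7 and 45.5 CPM against 57.2, 40.7 and 43.1 CPM. In the lungs, Rrm2 was at 63.3 to 80.0 CPM labelled off and at 50.7 to 58.2 CPM labelled on, on day 7 (-0.39, edgeR adjusted p = 0.998). On day 14 the lung difference was -0.52 (edgeR adjusted p = 0.430). Rrm2 was lower labelled on in 4 of 4 same-numbered lung pairs of that day, and the replicate block gave -0.56 (adjusted p = 0.130). The labels did not overlap in the liver on either day or in the lungs on day 7. They overlapped in the lungs on day 14 and in the pancreas on both days. The difference of Rrm2 between labels was not shown to differ between organs (edgeR interaction test, adjusted p = 0.579 on day 7 and 0.854 on day 14). The lower of the 2 liver libraries labelled off on day 7 was the paired-end library, and without it the log2 fold change was -1.48 (edgeR adjusted p = 0.0386). Without the other library labelled off it was -0.42 (adjusted p = 0.229), so that the size of the difference depended on these 2 libraries.

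Earlier results on S-phase genes were known when these genes were chosen, so that Rrm1 and Rrm2 are not independent of them. Within an organ and a day, 7 of the other 17 S-phase genes of the list passed at any fold in pancreas tumors of day 7 (2.24% of all genes) and 2 in those of day 14 (12.9%), all lower labelled on, and edgeR passed 0 of 17 in liver and lungs on either day. For the liver, the medians were -0.77 on day 7 and -0.25 on day 14, 7 and 2 of the 17 had an unadjusted p under 0.05 (27.1% and 9.68% of all genes), and DESeq2 passed 6 and 0 at any fold (23.2% and 2.68%). The lungs had 0 and 5 at an unadjusted p under 0.05 (5.22% and 10.1%), and DESeq2 passed 0 and 1 there (0.711% and 2.6%). The lung medians were -0.0036 on day 7, with 8 of the 17 genes higher labelled on, and -0.34 on day 14, with 2 higher. In the pancreas the medians were -0.58 on day 7 and -0.15 on day 14. Over all libraries, these 17 genes summed to 740 to 1440 CPM labelled off and to 689 to 1069 CPM labelled on, and 8 of the 17 passed the threshold in the single fit of all libraries, all lower and none by over 2-fold, where 19.8% of all genes passed at any fold, with a median log2 fold change of -0.30 over the list against -0.49 over the 7 genes described here. Cdc45 fell by 0.59, Mcm6 fell by 0.49, Uhrf1 fell by 0.49 and E2f1 fell by 0.59. The part of cell proliferation in the differences of Rrm1, Rrm2 and Dck was not tested.

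Counted over the 7 genes, the labels did not overlap, with labelled on lower, for 3 genes in pancreas tumors of day 7 (22.3% of all genes tested there) and 2 in those of day 14 (25.2%). Liver metastases had 4 such genes on day 7 (18.8%) and 3 on day 14 (6.52%), and lung metastases 4 on day 7 (6.67%) and 2 on day 14 (3.1%). With labelled on higher, the 1 gene was Slc29a3 in each, against 21%, 21.9%, 27.2%, 8.48%, 5% and 2.6% of all genes. In the pancreas and in the liver on day 7 such separation was frequent among all genes, and it was rarest in the lungs on day 14.

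The ratio of Slc29a3 to Slc29a1 had a higher median in libraries labelled on, with ranges that overlapped, and was not tested. Per length, Slc29a3 stood at 0.0255 to 0.0858 of Slc29a1 in the libraries labelled off (median 0.0486) and at 0.0756 to 0.653 in those labelled on (median 0.293). The highest ratios were in the liver labelled on, with a median of 0.448 over 6 libraries, against 0.257 over 5 in the pancreas and 0.211 over 6 in the lungs. Slc29a3 did not exceed Slc29a1 in any library by this length, and with merged exons as length it did in 1 of 35, where the ratio was 1.06. The ratio of Dck to Cda had a median of 0.421 labelled off and 0.612 labelled on, with overlapping ranges (0.147 to 1.02 and 0.228 to 1.14).

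**Figure D3:**
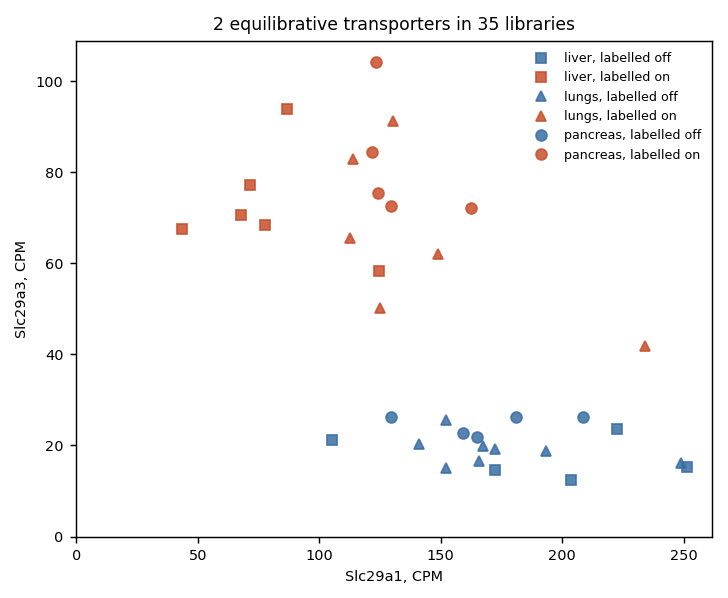
CPM of Slc29a3 (vertical) against CPM of Slc29a1 (horizontal) in 35 libraries, each a point colored by label and shaped by organ. The labels separate along Slc29a3 alone, and the liver libraries labelled on include the lowest Slc29a1 values, from 43.7 to 125 CPM.

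Between organs, none of the 7 genes changed over 2-fold within either label. In libraries labelled off, 8.68% of all genes were called between liver and pancreas, 18.4% between lungs and pancreas and 3.95% between liver and lungs. In libraries labelled on, the shares were 22.2%, 13.6% and 10.3%. DESeq2 also called 0 of the 7 in each of these 6 comparisons, with 11.6%, 20.5% and 6.18% of all genes labelled off and 23.8%, 15.8% and 12.2% labelled on. At an adjusted p under 0.05 and any fold, the counts were 1, 2 and 1 of 7 in labelled off (15%, 34.4% and 5.76% of all genes) and 4, 0 and 2 in labelled on (40.6%, 27.5% and 20.2%). The 3 pairs of organs within a label share their libraries.

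In libraries labelled on, Slc29a1 was lowest in the liver, at 78.7 ± 26.8 CPM (SD, n = 6), against 132 ± 17.2 CPM in the pancreas (n = 5) and 144 ± 46.0 CPM in the lungs (n = 6). The log2 difference was -0.77 ± 0.23 from the pancreas (SE; edgeR adjusted p = 0.0136) and -0.89 ± 0.22 from the lungs (adjusted p = 0.0103), and both kept an adjusted p under 0.05 whichever of the 17 libraries was left out. In libraries labelled off, Slc29a1 was at 191 ± 55.9 CPM in the liver (n = 5), 169 ± 29.0 CPM in the pancreas (n = 5) and 174 ± 34.1 CPM in the lungs (n = 8), and neighbours in this order did not differ beyond their spread.

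Cda had the opposite order. In libraries labelled on it was highest in the liver, at 10.4 ± 1.54 CPM (SD, n = 6), against 6.59 ± 1.76 CPM in the pancreas (n = 5) and 6.42 ± 1.79 CPM in the lungs (n = 6). The log2 difference was 0.69 ± 0.21 from the pancreas (SE; edgeR adjusted p = 0.0140) and 0.76 ± 0.20 from the lungs (adjusted p = 0.0140). With each of the 17 libraries left out in turn, the difference from the lungs passed in 17 of 17 and that from the pancreas in 16 of 17, with a highest adjusted p of 0.0529. In libraries labelled off, the difference between liver and pancreas was 0.44 (adjusted p = 0.221).

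Dck and Rrm1 were also lower in the liver than in the pancreas in libraries labelled on, by smaller amounts. The log2 differences were -0.37 ± 0.14 for Dck (edgeR adjusted p = 0.0389) and -0.32 ± 0.12 for Rrm1 (adjusted p = 0.0408). With a library left out, these adjusted p rose to at most 0.104 and 0.150.

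In libraries labelled off, Rrm1 was lower in the lungs, at 95.9 ± 9.30 CPM (SD, n = 8), than in the pancreas, at 150 ± 28.1 CPM (n = 5), and in the liver, at 141 ± 27.2 CPM (n = 5). The log2 difference was -0.69 ± 0.13 for lungs against pancreas (SE; edgeR adjusted p = 0.000998), which held whichever of the 18 libraries was left out, and 0.58 ± 0.13 for liver against lungs (adjusted p = 0.0170), which held for 16 of 18. Slc29a3 was higher in the pancreas labelled off, at 24.7 ± 2.21 CPM, than in the liver (17.4 ± 4.79 CPM; log2 difference -0.52, adjusted p = 0.0395) and the lungs (18.9 ± 3.29 CPM; -0.42, adjusted p = 0.0306). These 2 differences were less firm, with edgeR adjusted p of 0.0579 and 0.0560 under the size factors of DESeq2. With a library left out they rose to at most 0.142 and 0.114. The mouse number as a replicate block gave 0.0532 and 0.0761, but that block joins libraries of different organs, and so of different hosts, that only share a number. The fibroblast markers, higher in the pancreas by the sums given above, moved with every comparison with that organ, and their part was not tested. For liver against lungs labelled off, edgeR called 5 of 8 fibroblast and 2 of 7 acinar cell markers higher. It called 5 of 6 endothelium, 5 of 6 lung epithelium and 1 of 10 macrophage markers lower. Of 8 hepatocyte markers, 1 was higher and 1 lower, and the part of all these markers was not tested.

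**Figure D4:**
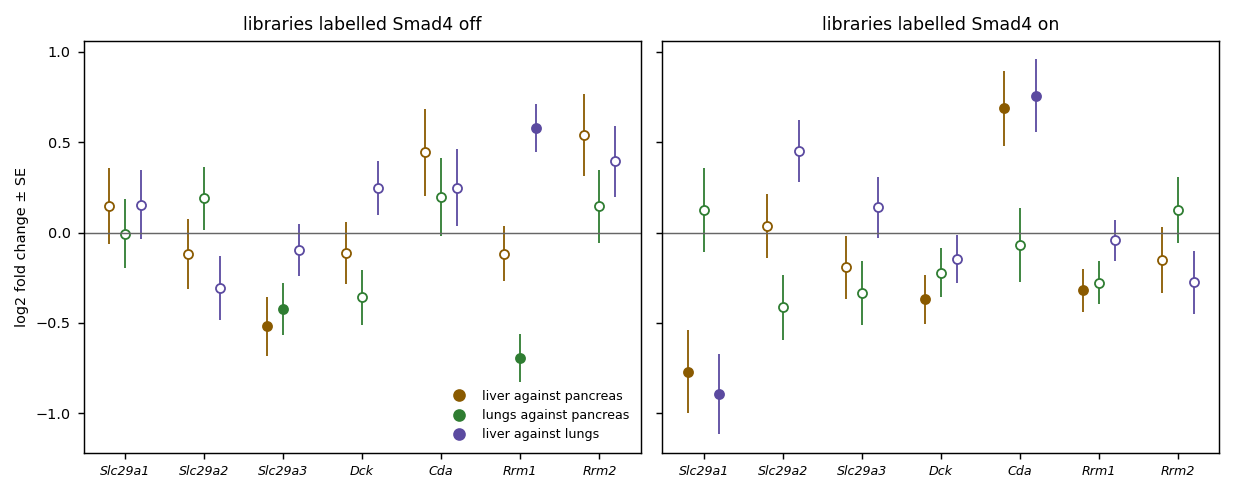
Log2 fold change of the 7 genes between organs in libraries labelled Smad4 off (left) and on (right), with SE bars; filled points have an adjusted p under 0.05 in edgeR at any fold. No point lies beyond 1 in either direction, and Slc29a1 and Cda labelled on are filled with opposite signs in both comparisons of the liver.

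Between day 14 and day 7, over all organs and both labels, 0 of the 7 genes were called, where edgeR called 0.0171% of all genes, and none had an unadjusted p under 0.05 (13.7% of all genes). The log2 differences ran from -0.09 for Slc29a3 to 0.25 for Cda. DESeq2 also called 0 (0.0684%). By any fold, 0.217% of all genes passed.

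Around the 7 genes, the wider nucleoside pathway was described from lists of related genes. Over all 35 libraries, labelled on against off, 1 of 3 other nucleoside transporters tested was called and higher, Slc28a3 (CNT3, a concentrative transporter) at 1.01 ± 0.36 (SE; edgeR adjusted p = 0.0437). At any fold, 19.8% of all genes passed in this fit, and 3 of 11 kinases and 4 of 13 nucleotidases and related enzymes are to be read against that share. Of the 11 nucleoside and nucleotide kinases, 2 were higher and 1 lower at any fold: Cmpk2, a mitochondrial nucleoside monophosphate kinase that interferon induces, at 1.31 ± 0.22 (adjusted p = 0.000146), Dguok, the mitochondrial deoxyguanosine kinase, at 0.20, and Tk1, thymidine kinase, at -0.42. Of 13 nucleotidases, deaminases and phosphorylases, Nt5c3 (0.48) and Nt5c2 (0.37) were higher and Nt5e (-0.48) and Nt5c3b (-0.21) lower. Nt5c2 and Nt5c3 encode cytosolic 5'-nucleotidases, which remove phosphate from nucleotides. Of 5 efflux pumps, Abcc4, which exports cyclic nucleotides and nucleotide analogs, was higher (0.72 ± 0.11, adjusted p = 6.0e-05). The medians of these lists lay between -0.30 and 0.36.

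**Figure D5:**
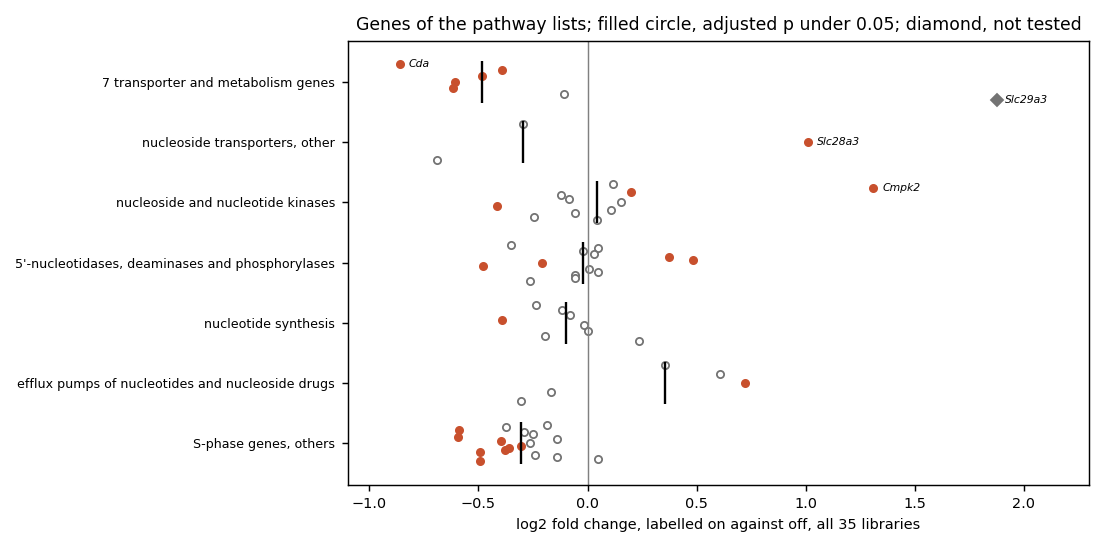
Log2 fold change, labelled on against off, in the single fit of 35 libraries (horizontal), for each gene of the pathway lists (rows), with the median of each list as a black line. Filled circles passed an adjusted p of 0.05 in edgeR at any fold, open circles did not, the diamond is Slc29a3 (1.88), drawn without its call because it was chosen with its difference known, and genes beyond 0.8 in either direction are named.

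Some genes of the wider lists differed strongly between organs. Abcc3, an efflux pump of conjugates and some nucleoside drugs, was above its pancreas level by 2.67 in liver metastases and by 2.35 in lung metastases on the log2 scale in libraries labelled off (edgeR adjusted p = 0.00343 and 0.000620), and by 3.79 and 1.83 in libraries labelled on (adjusted p = 2.91e-06 and 0.00120). Slc28a3 was higher in the liver than in the pancreas by 2.83 (adjusted p = 5.16e-05) and than in the lungs by 1.62 (adjusted p = 0.00629) in libraries labelled on. Cell markers moved with these differences. For liver against pancreas, edgeR called 5 of 6 carcinoma epithelium markers higher in libraries labelled off and 6 of 6 in those labelled on, 3 and 5 of 8 hepatocyte markers higher, 2 and 8 of 8 fibroblast markers lower, 5 and 7 of 7 acinar cell markers lower, 4 and 3 of 6 endothelium markers lower, and 4 of 10 macrophage markers lower under both labels, with 1 of the 10 higher labelled on. For lungs against pancreas, it called 8 of 8 fibroblast and 7 of 7 acinar cell markers lower and 5 of 6 lung epithelium markers higher under both labels, 4 and 2 of 8 hepatocyte markers higher, 4 and 1 of 6 carcinoma epithelium and 3 and 4 of 6 endothelium markers higher, and 5 and 4 of 10 macrophage markers lower, with 1 of the 10 higher labelled on. For liver against lungs labelled on, 5 of 6 lung epithelium and 6 of 6 endothelium markers were lower, 5 of 8 fibroblast and 3 of 6 carcinoma epithelium markers were higher, and of 8 hepatocyte markers 2 were higher and 1 lower. The part of these markers was not tested.

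For each of the 7 genes, the 3 genes with the most similar log2 CPM over the 35 libraries were listed among 17547, as a description. Points share organ, label and library depth, and no p is given. Slc29a3 was most like Gli2, the hedgehog pathway transcription factor (Pearson r = 0.942), then Adgrg1 (0.882) and Serpinb9g (0.860). Slc29a1 was most like Pcolce2 (0.918), Stac2 (0.915) and Bend6 (0.910). Dck was most like E2f7 (0.910), Kntc1 (0.898) and Top2a (0.893), Rrm1 like Rad21 (0.942), Nup107 (0.911) and Ddx1 (0.891), and Rrm2 like Trip13 (0.806), Uchl5 (0.766) and Gm45716 (0.746). Cda was most like Tspan7 (0.792), Smg9 (0.712) and Nt5e (0.709), and Slc29a2 like Gm20467 (0.701), Nkx2-3 (0.674) and Cmtm8 (0.642). Among the 7 themselves, r was highest between Dck and Rrm1 (0.794) and lowest between Slc29a3 and Rrm2 (-0.751).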

How the data were processed

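RNA was measured in 35 libraries of sorted tumor cells. The authors deposited whole-number counts of reads per gene, made from 75-bp reads (TruSeq Stranded mRNA, poly(A)-selected) with Trimmomatic 0.36, STAR 2.5.3a and featureCounts 1.6.3 on GRCm38, with FastQC 0.11.5, as the submitters' processing notes and the study's methods name them. The counts are not normalized, and the strand setting of the counting is not given in the sources used here, so that reads of Slc29a1 and its antisense gene Gm17080 (152 counts over all libraries) or of Rrm1 and Gm45399 (58) may be shared. The deposited table also lists a transcript length per gene, which was not used for the tests. Table columns were matched to the labels with 0 left over, and 0 pairs of libraries were identical.

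For each comparison, the libraries of its groups were filtered by filterByExpr (at least 10 counts, and 15 in all), TMM-scaled and tested with the robust quasi-likelihood F test of edgeR 4.0.16 (R 4.3.3). Adjusted p are Benjamini-Hochberg values over all genes tested, and a gene was called at an adjusted p under 0.05 and a fold over 2. Standard errors are the log2 fold change divided by the square root of F. CPM were made with TMM over all 35 libraries, and likeness used log2 CPM with a prior count of 0.5. Organs were compared within a label with day as a term, and label responses between organs by the interaction of organ and label. The 7 genes, the pathway lists and the tests were chosen with earlier results of these data known, among them the label difference of Slc29a3 on day 14 and differences of S-phase genes. Named were the 7 genes, the 3 most similar genes of each and up to 4 called genes of each other list. Genes of the other lists that passed without a fold over 2, and the genes that separated all 35 libraries, were named after their values were seen. Nothing says that libraries of a group came from separate cell cultures or batches, and p-values measure the spread between these libraries. The spread of depth per library sets the precision of low genes.

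The alternatives were DESeq2 1.42.0, its size factors, no filter, no fold threshold, the mouse number as a replicate block, a covariate for mt-Co3 counts, a single fit of all 12 groups, CPM from library totals and each library left out. The fit of the labels over all libraries, the split by mt-Co3 counts and merged exons as length were added after seeing the data. On day 14, same-numbered libraries of the 2 labels deviated together in the lungs (correlations 0.457, 0.466, 0.515 and 0.492). In the liver on day 14 the correlations were 0.146, 0.133 and 0.550. Those of the other organs and days ran from -0.298 to 0.340, a range that holds the liver values of 0.146 and 0.133. The fits were tested on simulated data. Figures were drawn with matplotlib 3.10.9 in Python 3.11.15. One allele of the cell lines and one gene of the pathway lists are not reported here.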

Additional observations from a re-analysis of the deposited data

Results flagged for a closer look

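The difference of Slc29a1 between the labels on day 7 differed between organs. Labelled on against off, the log2 fold change was -1.96 in the liver and 0.22 in the lungs, each fitted within its organ. In a joint fit of pancreas, liver and lungs these differences lay 2.12 apart (edgeR interaction test, adjusted p = 0.0285). All 3 liver libraries labelled on were below both labelled off, while of the 2 lung libraries labelled on 1 was below and 1 above all 4 labelled off. Leaving out single libraries gave differences of 1.49 to 2.56 and adjusted p of 0.00491 to 0.0691. It lost the call without either pancreas library labelled on, the paired-end liver library, or any of the 3 liver libraries labelled on. The same held without mouse 1 or 3 of the lungs labelled off. The replicate block gave an edgeR adjusted p of 0.102, but it also joins same-numbered libraries of different organs, which are different hosts. No cause was tested.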

How the results depend on the processing

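Of the 7 genes, the number called in a comparison of labels changed with the processing, and the cause was not tested. DESeq2 called 3 on day 7 (17.5% of all genes) and 2 on day 14 (2.22%) in liver metastases, and 2 (0.658%) and 2 (1.34%) in lung metastases, where edgeR called 0, 0, 0 and 1. Slc29a3, whose difference on day 14 was known, was among the DESeq2 calls of that day in both organs. Without a filter the liver had 2 on day 7 (3.34%) and 1 on day 14 (0.0243%), the mt-Co3 covariate gave 2 for liver day 7 (6.38% of all genes) and 2 for lungs day 14 (0.861%), and a single fit of the 12 groups gave 2 for liver day 7 (17.6%), 2 for liver day 14 (1.45%) and 1 for lungs day 7 (0.0912%). With each library left out in turn, the counts ran from 0 to 1 for pancreas day 7 (0 without mouse 3 labelled off, with 0.329% of all genes), from 0 to 3 for liver day 7 (2 without mouse 1 labelled off, with 19.8% of all genes, and 3 without mouse 2, with 4.98%), from 0 to 1 for lungs day 14 (0 without mouse 1, 2 or 3 labelled off or mouse 1 labelled on, with 0.0132% to 0.0264%), from 0 to 1 between liver and lungs labelled on (1 without mouse 2 of the liver on day 14, with 11.1%) and from 0 to 1 for the label response between organs on day 7 (0 in 8 of 16 fits, with 0.331% to 1.8%). Without a fold threshold, 1, 2 and 1 genes passed between liver and pancreas, lungs and pancreas, and liver and lungs labelled off, 4 and 2 between liver and pancreas and liver and lungs labelled on, and 6 over all libraries, of which Slc29a3 was chosen with its difference known.

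Within an organ and a day, the replicate block keeps only mouse numbers found under both labels, so that the pancreas on day 7 lost mouse 3 labelled off. With the mouse number as a replicate block, the pancreas on day 7 and the label response between organs on day 7 had 0 calls in place of 1. Over all genes, the share called went from 1.33% to 0% and from 4.19% to 0.0484%. In the former, Slc29a2 turned to -0.0788. The block also turned Dck in the pancreas on day 14 to -0.0246, Slc29a1 between lungs and pancreas labelled off to 0.0423 and Rrm1 between liver and lungs labelled on to 0.0439. Over all libraries, the block left the 5 lower genes at adjusted p of 0.00145 to 0.0186 (edgeR). Slc29a3 between liver or lungs and pancreas labelled off had edgeR adjusted p of 0.0532 and 0.0761 with the block. In comparisons between organs and in the label response between organs, the block joins same-numbered libraries of different organs, which are different hosts.

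Slc29a1 between lungs and pancreas labelled off, at -0.0070, was 0.0415 under DESeq2, 0.0414 under its size factors and 0.0442 with no filter. Leaving out single libraries turned other small differences, none of which passed the threshold. In the pancreas, Slc29a2 ran from -0.13 to 0.28 on day 7 and from -0.0603 to 0.16 on day 14, Dck from -0.0272 to 0.18 and Rrm2 from -0.12 to 0.13 on day 14. In the liver, Slc29a2 ran from -0.0410 to 0.75 on day 7 and from -0.0228 to 0.16 on day 14. In the lungs on day 7, Slc29a1 ran from -0.45 to 0.67. Between liver and pancreas labelled off, Slc29a2 ran from -0.21 to 0.0260, Dck from -0.23 to 0.0191 and Rrm1 from -0.19 to 0.0435, and labelled on, Slc29a2 from -0.0628 to 0.11 and Rrm2 from -0.24 to 0.0329. Between lungs and pancreas, Slc29a1 ran from -0.0860 to 0.0985 labelled off and from -0.15 to 0.21 labelled on, and Cda from -0.20 to 0.0227 labelled on. Between liver and lungs, Slc29a1 ran from -0.0030 to 0.32 and Cda from -0.0240 to 0.36 labelled off, and Rrm1 from -0.13 to 0.0117 labelled on. Between the days, Slc29a1 ran from -0.0294 to 0.14, Dck from -0.081 to 0.0097 and Rrm2 from -0.0378 to 0.0872. Of the values for single genes, 2313 kept direction and side of the threshold, 48 turned, 25 gained and 15 lost significance and 7 levels moved beyond their spread. With 2 libraries in an arm, leaving one out assumes that the lone library varies like the others, and depth limits Slc29a2 most, which had 50 to 245 counts per library.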
